A study of Mus musculus with 5 samples.

Results

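A 25 kb stretch of the gene desert between Shh and Lmbr1 was followed through 6 chromatin contact maps of the mouse Shh locus. It lies at chr5:28865001-28890000 in mm10 and consists of 5 bins of 5 kb, with the centre bin starting at 28875001. The site was chosen by measured values, because its centre bin held more contacts in the intraTAD3 map than in any other map. Every pair of 1 site bin with a bin 20 kb or more away was then taken, which gave 2704 of the 148269 bin pairs at such distances. Pairs with at least 1 contact numbered 2415 in the wild-type map, 2614 in intraTAD2, 2598 in intraTAD3, 2278 in intraTAD2-i4CTCF, 2247 in intraTAD2-2xBorCTCF and 2516 in intraTAD2-1xBorCTCF. Since the intraTAD3 map chose the site, its differences from the other maps are descriptions here and are not evidence for the choice.

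The maps came from capture Hi-C of E10.5 mouse limb buds, an assay that ligates DNA pieces lying close together in the nucleus and enriches 1 chosen region before sequencing. The 5 mutant genotypes were homozygous: intraTAD2, intraTAD3, intraTAD2-i4CTCF, intraTAD2-2xBorCTCF and intraTAD2-1xBorCTCF, each with 1 library. Embryos of the first 3 genotypes were bred by mating. Those of both BorCTCF genotypes were produced through tetraploid aggregation, a method that derives embryos from stem cells aggregated with a tetraploid host. For wild type the authors deposited a map that is tied to none of the samples, given here as the authors' map. Its library is not described in the sources used here, so that in a ratio to wild type the genotype and the origin of the library cannot be told apart. What each allele changes is likewise not given there. Ratios to intraTAD2 are printed beside some of those to wild type for this reason, although an intraTAD2 library is also only 1 library.

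Shh encodes a secreted signal that patterns the limb bud from thumb to little finger. In the posterior limb bud its transcription depends on the ZRS, an enhancer inside an intron of the neighbouring gene Lmbr1, on the far side of a large gene desert. Gene and enhancer share a topologically associating domain (TAD), a stretch of chromosome whose parts contact each other more than they contact DNA outside it. Binding sites of the protein CTCF mark the borders of many such domains, and a point across which contact is low is called insulated.

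The site overlapped 0 annotated genes. The long non-coding RNA gene Gm35688 (28890378-29004724) began 377 bases beyond its end, and Gm42243 (28840656-28858429) ended 6.571 kb before its start. The body of Shh (28456840-28467101) was 397.9 kb away, Rnf32 (29192745-29227635) 302.7 kb and Lmbr1 (29229802-29378421) 339.8 kb. In the wild-type map the domain with Shh and most of Lmbr1 ran from 28440001 to 29355000, so the site lay near its middle. A sequence of the site is not printed, because no genome of the files' build was used here.

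The 6 maps held 1121373 (intraTAD2-2xBorCTCF) to 2942790 (intraTAD2) recovered contacts. The site's pairs carried 27842 contacts in the wild-type map, 52206 in intraTAD2, 67484 in intraTAD3, 18896 in intraTAD2-i4CTCF, 18795 in intraTAD2-2xBorCTCF and 31928 in intraTAD2-1xBorCTCF. As a share of all contacts of its map the site took 2.37% in intraTAD3 and 1.504% to 1.77% in the other 5 maps. All further levels are distance-normalised contacts: the balanced value of the authors over the map's own mean for bin pairs equally far apart, so that 1 is the average. Ratios are log2 ratios of such levels. Each carries a 95% interval from the Poisson error of the recovered contacts, which covers counting error only and not the spread between embryos. A difference is called higher or lower where that interval does not hold 0. No test was possible and no p-value is given, as a genotype had a single library.

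The values that chose the site were the contact ends of its centre bin. A contact with another bin adds 1 end to the bin, and a contact within the bin adds 2. These were 4196 in the wild-type map, 10900 in intraTAD2, 44013 in intraTAD3, 4824 in intraTAD2-i4CTCF, 4466 in intraTAD2-2xBorCTCF and 8446 in intraTAD2-1xBorCTCF. The intraTAD3 value was 4.41 times the median bin of its map, against 0.735 times in wild type and 1.06 to 1.198 times in the other 4 mutant maps. The share of contact ends that fell in the centre bin was 3.95 times the median share in the other 4 mutant maps, the highest ratio of all bins kept. The next bin in that order started at 28720001, outside the site, with a ratio of 1.37, and the middle 90% of bins ranged from 0.911 to 1.16. The 4 neighbours of the centre bin had ratios of 0.866, 1.22, 1.09 and 1.03 from the Shh side to the Lmbr1 side. The excess thus lay mainly in 1 bin of 5 kb, although the neighbour with 1.22 was also above the middle 90% of bins. Just outside the site, the bin starting at 28860001 held 20961 contact ends in intraTAD3 and the bin starting at 28890001 held 18146, both within the range of the neighbours (9962 to 25637).

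**Figure D1:**
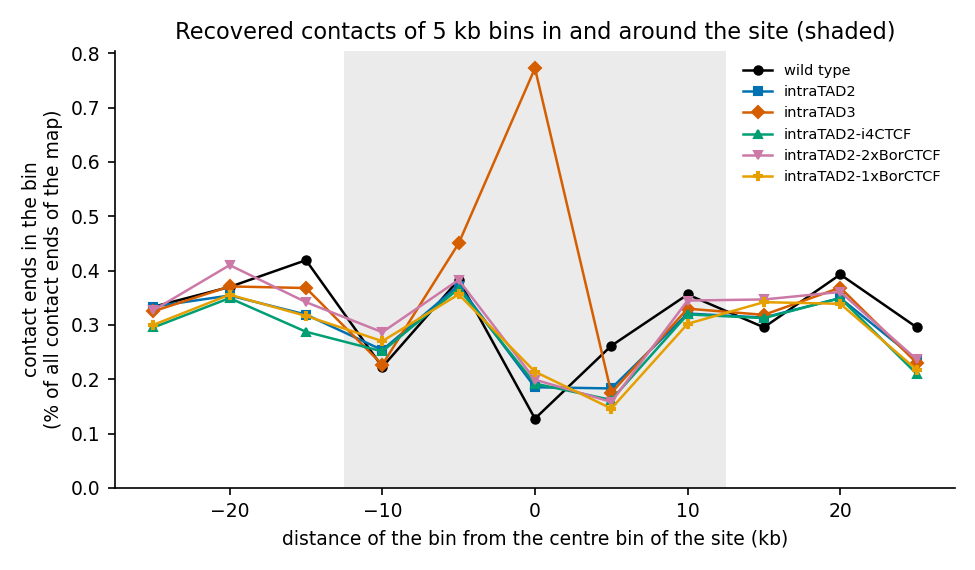
Contact ends in each 5 kb bin as a percentage of all contact ends of the map, by distance from the centre bin in kb, for the 6 maps; the shaded bins form the site. The centre bin held 0.772% of the ends in intraTAD3 and 0.127% to 0.214% elsewhere, while the neighbouring bins differed less among the mutant maps.

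In intraTAD3 the extra contacts of the centre bin were spread nearly in proportion over the distances of 20 kb or more. Recovered contacts of the centre bin divided by the mean of its 4 neighbours ranged from 2.73 to 3.12 over the bands of distance on both sides, with a median of 2.88. In the other maps the same ratio had medians of 0.460 in the wild-type map, 0.681 in intraTAD2, 0.732 in intraTAD2-i4CTCF, 0.719 in intraTAD2-2xBorCTCF and 0.837 in intraTAD2-1xBorCTCF. In those 5 maps the centre bin thus had fewer contacts than the mean of its neighbours, and in intraTAD3 it had more at every distance examined.

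The intraTAD3 map also lacked contacts at a second place, the stretch of 3 bins at chr5:29305001-29320000 inside Lmbr1, called the ZRS stretch here. The exact position of the enhancer was not looked up in an annotation. The stretch held 739 contact ends in intraTAD3, of which 0 fell in its first bin and 0 in its second. It held 20008 in the wild-type map, 25687 in intraTAD2, 10596 in intraTAD2-i4CTCF, 13680 in intraTAD2-2xBorCTCF and 16754 in intraTAD2-1xBorCTCF. Centre bin and stretch together took 0.785% of the contact ends in intraTAD3. The same sum was 0.735% in the wild-type map, 0.622% in intraTAD2, 0.614% in intraTAD2-i4CTCF, 0.809% in intraTAD2-2xBorCTCF and 0.638% in intraTAD2-1xBorCTCF. Against the median share of the other 4 mutant maps, intraTAD3 differed by 32871 ends in the centre bin and by -23778 ends in the stretch. Both numbers are given side by side, and a link between them was not tested.

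Contact of Shh, the signalling gene at one end of the domain, with the site was above the average for the distance in all 6 maps. The level was 1.51 (95% interval 1.32 to 1.70) in the wild-type map, 1.48 (1.36 to 1.60) in intraTAD2, 1.94 (1.798 to 2.08) in intraTAD3, 1.44 (1.24 to 1.63) in intraTAD2-i4CTCF, 1.60 (1.37 to 1.83) in intraTAD2-2xBorCTCF and 1.21 (1.07 to 1.34) in intraTAD2-1xBorCTCF. The intraTAD3 map was the highest and intraTAD2-1xBorCTCF the lowest, while the intervals of the 4 maps between them overlapped. The interval of intraTAD3 also overlapped that of intraTAD2-2xBorCTCF. That of intraTAD2-1xBorCTCF overlapped those of wild type and intraTAD2-i4CTCF. Against wild type the site to Shh contact was higher in intraTAD3 by 0.36 (0.15 to 0.57) on the log2 scale. In intraTAD2-1xBorCTCF the log2 ratio was -0.32 (-0.56 to -0.078), but the interval held 0 under 4 other settings: -0.12 without balancing, -0.19 with the expected value taken inside the domain, -0.21 without the centre bin and -0.30 for a site of 3 bins. The other 3 ratios were -0.024, -0.071 and 0.086 with intervals that held 0. Against intraTAD2 the ratio was 0.39 (0.23 to 0.54) in intraTAD3 and -0.30 (-0.49 to -0.096) in intraTAD2-1xBorCTCF.

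Within intraTAD3 the contact with Shh was not a property of the centre bin alone. From the Shh side to the Lmbr1 side the 5 bins had levels of 1.964, 2.02, 2.36, 1.73 and 1.61 with Shh, resting on 112, 215, 451, 83 and 133 contacts. In wild type the same bins had 1.28, 1.21, 1.92, 1.59 and 1.54, on 44 to 84 contacts. Of the 5 bins, only the second had intervals in both maps that did not overlap (1.74 to 2.29 against 0.912 to 1.51). At other positions of the captured region, 470 equally large and equally distant pairs of windows were read. These overlap each other, and the nearest ones share bins with the site and with the Shh window. In 30 of them (6.38%) the ratio of intraTAD3 to wild type was at least as high as between site and Shh.

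Rnf32, a gene for a RING finger protein next to Lmbr1, had levels of 1.00 in the wild-type map, 1.17 in intraTAD2, 1.33 in intraTAD3, 1.12 in intraTAD2-i4CTCF, 1.07 in intraTAD2-2xBorCTCF and 1.13 in intraTAD2-1xBorCTCF. Wild type was the lowest of the 6. Log2 ratios to wild type were 0.40 (0.27 to 0.54) in intraTAD3, 0.23 (0.086 to 0.37) in intraTAD2 and 0.17 (0.013 to 0.33) in intraTAD2-1xBorCTCF, all higher. Against intraTAD2, intraTAD3 was higher by 0.18 (0.071 to 0.28).

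Lmbr1 was taken without the ZRS stretch, so that all maps had the same bins. The level was 1.31 in the wild-type map, 1.33 in intraTAD2, 1.51 in intraTAD3, 1.36 in intraTAD2-i4CTCF, 1.27 in intraTAD2-2xBorCTCF and 1.35 in intraTAD2-1xBorCTCF. Only the intraTAD3 ratio to wild type had an interval without 0, at 0.20 (0.10 to 0.30), and its ratio to intraTAD2 was 0.18 (0.10 to 0.25). In 16 of 454 equally placed pairs of windows (3.52%), the nearest of which share bins with the site and with Lmbr1, the intraTAD3 ratio was at least as high. With the third bin of the stretch added, Lmbr1 gave levels of 1.26 to 1.49.

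Between the site and the ZRS stretch, which are 415 kb apart, there were 201 contacts in the wild-type map, 266 contacts in intraTAD2, 96 in intraTAD2-i4CTCF, 96 in intraTAD2-2xBorCTCF and 163 in intraTAD2-1xBorCTCF. Levels in these maps were 1.503, 1.44, 1.59, 1.56 and 1.43, so the stretch was among the stronger partners of the site. All 4 mutant ratios to wild type had intervals that held 0, from -0.072 to 0.086. This held for balanced values only: without balancing all 4 ratios were below 0, from -0.55 to -0.44. In intraTAD3 there were 17 contacts, all with the third bin of the stretch, and no level was computed. The 20 kb just before the stretch had levels of 1.53 to 1.77 with the site over the 6 maps.

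**Figure D2:**
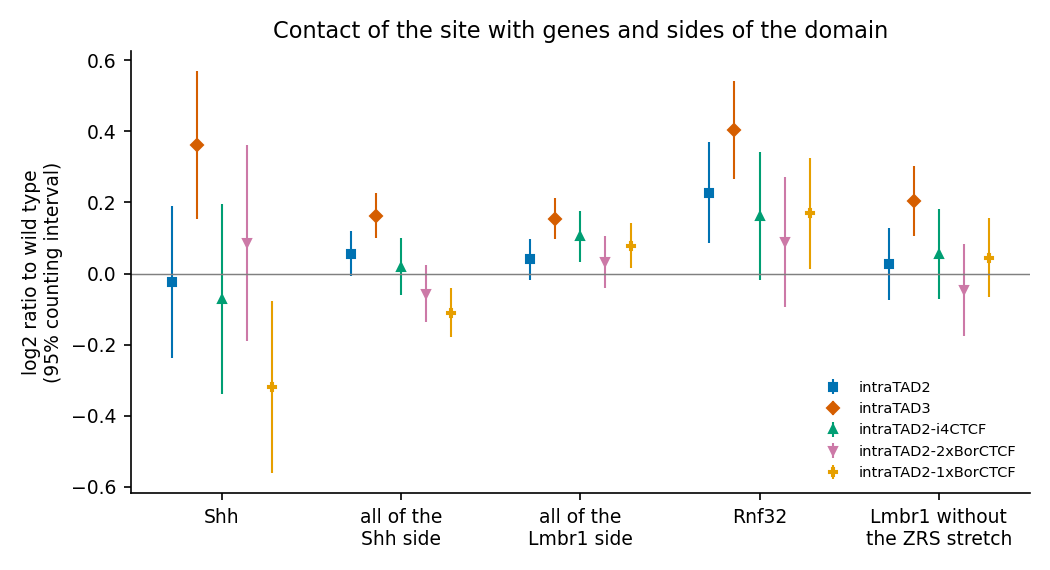
Log2 ratio to wild type of the contact between the site and 5 targets, for the 5 mutant maps; points are the ratios and bars their 95% counting intervals. All 5 intraTAD3 points lie above 0, from 0.15 to 0.40, and intraTAD2-1xBorCTCF lies below 0 for Shh and for the Shh side.

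Each side of the domain was also read as a whole, from the domain border to the site, with the genes in it included. On the Shh side the level over all these pairs was 1.21 in the wild-type map, 1.25 in intraTAD2, 1.35 in intraTAD3, 1.22 in intraTAD2-i4CTCF, 1.16 in intraTAD2-2xBorCTCF and 1.12 in intraTAD2-1xBorCTCF. Log2 ratios to wild type were 0.16 (0.10 to 0.23) in intraTAD3 and -0.11 (-0.18 to -0.040) in intraTAD2-1xBorCTCF, and the other 3 intervals held 0. On the Lmbr1 side the levels were 1.12, 1.15, 1.25, 1.205, 1.15 and 1.18 in the same order of maps. Here intraTAD3 (0.15, from 0.096 to 0.21), intraTAD2-i4CTCF (0.10, from 0.033 to 0.18) and intraTAD2-1xBorCTCF (0.078, from 0.015 to 0.14) were higher than wild type. For a site of 3 bins the last 2 were 0.013 and 0.021, with intervals that held 0, and intraTAD2-i4CTCF had 0.063 with such an interval when the expected value was taken inside the domain.

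The balance between both sides differed among the maps. The level on the Shh side exceeded that on the Lmbr1 side by 0.10 (0.031 to 0.18) on the log2 scale in wild type, by 0.12 (0.076 to 0.17) in intraTAD2 and by 0.11 (0.071 to 0.16) in intraTAD3. The difference was 0.020 in intraTAD2-i4CTCF and 0.015 in intraTAD2-2xBorCTCF, with intervals that held 0. In intraTAD2-1xBorCTCF it was reversed, at -0.083 (-0.14 to -0.025). The window midway between Shh and Lmbr1 was read against the same bins, laid out from the site and not from that window. The Shh-side bins thus included some of the window's own, and the Lmbr1-side bins left out its nearer partners. The values there cannot settle whether the reversal was particular to the site. From the midway window, intraTAD2-1xBorCTCF had 1.082 with the bins on the Shh side of the site and 1.204 with those on its Lmbr1 side. Wild type had 1.186 and 1.166 there. Its level with the Shh-side bins was also the smaller in intraTAD2-i4CTCF and intraTAD2-2xBorCTCF, and the larger in intraTAD2 and intraTAD3. An interval for the difference between sides was not computed at that window.

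Split by distance, intraTAD3 had lower balanced levels than wild type close to the site and higher levels far from it. At 20 to 50 kb its level was 0.791 on the Shh side and 0.778 on the Lmbr1 side, against 0.889 and 0.879 in wild type, log2 ratios of -0.17 (-0.24 to -0.10) and -0.18 (-0.25 to -0.098). The bands were not recomputed without balancing, so the lower near levels hold for balanced values only. Recovered contacts at 20 to 50 kb were 7013 on the Shh side and 6107 on the Lmbr1 side in intraTAD3, of 2848921. In wild type they were 2913 and 2780 of 1646616, a smaller share of the map. At 50 to 100 kb the intervals of both log2 ratios held 0. At 100 to 200 kb the ratios were 0.13 (0.064 to 0.20) and 0.14 (0.0033 to 0.28), and at 200 to 400 kb 0.16 (0.058 to 0.26) and 0.21 (0.12 to 0.29). At 400 to 600 kb, the band with the far end of the domain on either side, they were 0.43 (0.21 to 0.65) on the Shh side and 0.15 on the Lmbr1 side, where the interval held 0.

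The other 4 mutant maps had near contacts of 0.861 to 0.944 at 20 to 50 kb, all above the intraTAD3 levels. Both BorCTCF maps were lower than wild type at 200 to 400 kb on the Shh side, with levels of 1.18 in intraTAD2-2xBorCTCF and 1.16 in intraTAD2-1xBorCTCF against 1.35 in wild type. These log2 ratios were -0.19 (-0.32 to -0.060) and -0.21 (-0.33 to -0.097). The drop was not particular to the site: in the same band, the window midway between Shh and Lmbr1 had -0.21 and -0.28. There intraTAD2-i4CTCF, bred by mating, was also lower than wild type, at -0.17 (-0.28 to -0.062). Both BorCTCF genotypes came from tetraploid aggregation, which therefore cannot be told apart from their alleles in the drop at the site.

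**Figure D3:**
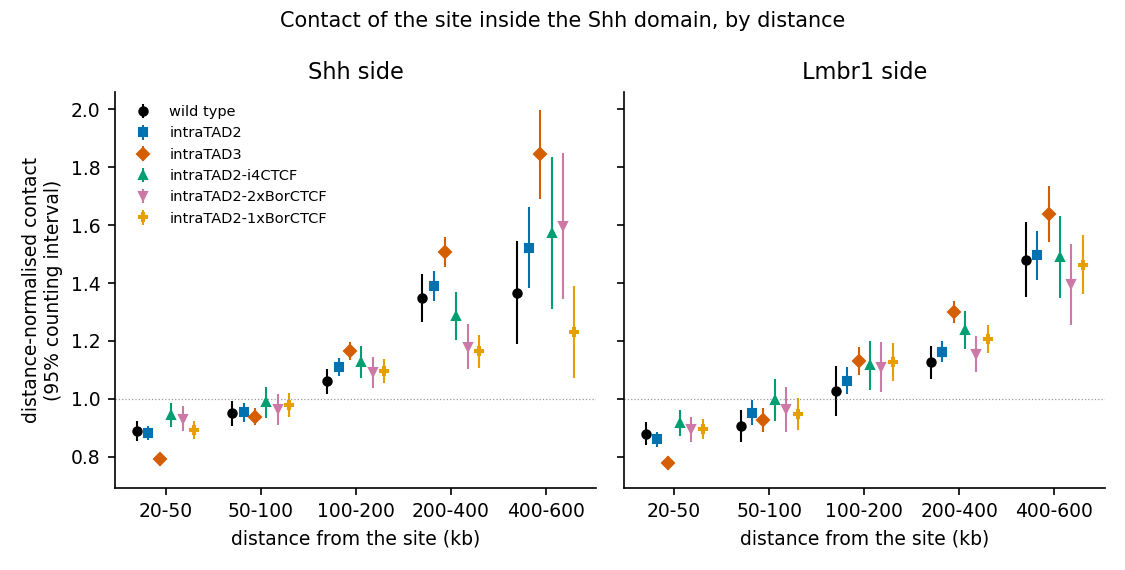
Balanced, distance-normalised contact of the site by band of distance in kb inside the Shh domain. The Shh side is on the left and the Lmbr1 side on the right, with 95% counting intervals for the 6 maps. The intraTAD3 points are the lowest at 20 to 50 kb (0.791 and 0.778) and the highest at 200 to 400 kb (1.51 and 1.30).

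Contact across the site, from the DNA before it to the DNA after it, was lowest in intraTAD3. This was measured as the log2 mean level between the 100 kb on either side of the centre bin, which was itself left out. It was -0.046 in the wild-type map, -0.013 in intraTAD2, -0.17 in intraTAD3, 0.079 in intraTAD2-i4CTCF, 0.048 in intraTAD2-2xBorCTCF and 0.015 in intraTAD2-1xBorCTCF. Minus wild type, intraTAD3 had -0.13 (-0.17 to -0.090), intraTAD2 had 0.033 with an interval that held 0, and the maps intraTAD2-i4CTCF, intraTAD2-2xBorCTCF and intraTAD2-1xBorCTCF had 0.13, 0.094 and 0.061 with intervals above 0. These 3 directions depended on the balancing: with raw contacts the differences were -0.089, -0.0048 and -0.12, and over windows of 25 kb all 3 intervals held 0. Over 50 kb the interval of intraTAD2-1xBorCTCF also held 0, and against the median of the other 4 mutant maps that map had -0.0028. The gap in intraTAD3 was wider with windows of 50 kb (-0.31, from -0.36 to -0.26) and of 25 kb (-0.51, from -0.58 to -0.44). Over windows of 50 kb the levels were -0.17 in the wild-type map, -0.18 in intraTAD2, -0.48 in intraTAD3, -0.090 in intraTAD2-i4CTCF, -0.087 in intraTAD2-2xBorCTCF and -0.12 in intraTAD2-1xBorCTCF.

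Of 529 bins with such a value, the centre bin of the site had the lowest difference between intraTAD3 and wild type over 50 kb. It was also the lowest bin for the difference between intraTAD3 and intraTAD2. Over 100 kb, 20 of 509 bins, the centre bin included, had a difference at least as low, the lowest of them at 30155001 near the edge of the captured region. Leaving all 5 site bins out of the windows left a difference of -0.24 (-0.29 to -0.18) over 50 kb and of -0.082 (-0.12 to -0.041) over 100 kb, so pairs that do not touch the site also had less contact across it in intraTAD3.

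**Figure D4:**
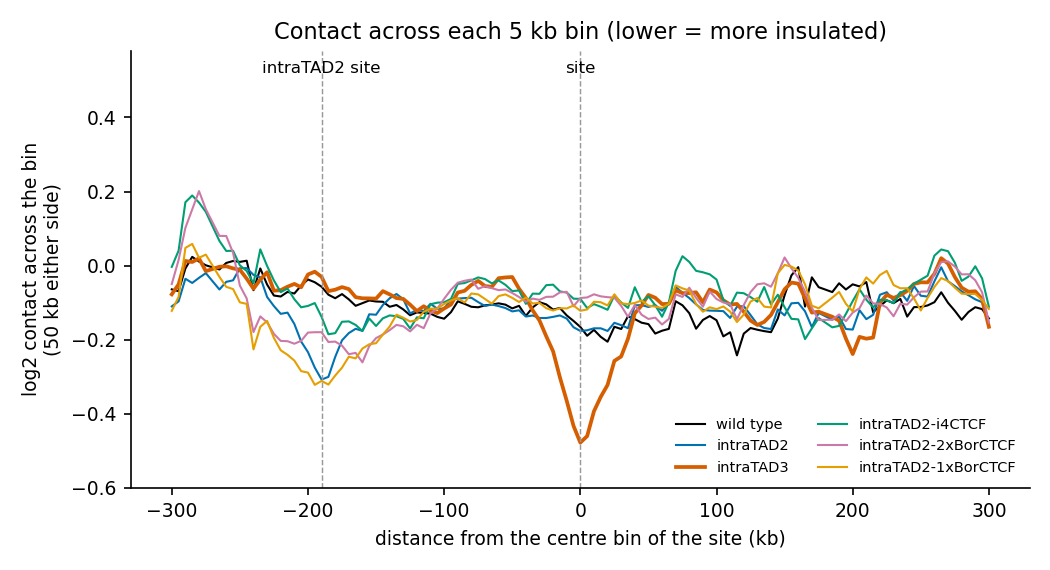
Log2 distance-normalised contact between the 50 kb before and the 50 kb after each 5 kb bin, by distance from the centre bin of the site in kb, for the 6 maps; bins left out for too few partners are not drawn. The intraTAD3 line falls to -0.48 at the site, and intraTAD2 and intraTAD2-1xBorCTCF fall to -0.31 at the intraTAD2 site, 190 kb towards Shh.

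Genes outside the domain were poor partners of the site, and few of their contacts differed. On the side of En2 the list held Rbm33, Cnpy1, En2, Insig1, Paxip1 and Htr5a, and on the side of Mnx1 it held Nom1, Mnx1, Ube3c and Dnajb6. Over the 6 maps their levels ranged from 0.380 (lowest, Mnx1) to 1.10 (highest, Htr5a), resting on 33 to 1649 contacts. On the En2 side the ranges were 0.771 to 0.853 for Rbm33, 0.682 to 0.828 for Cnpy1, 0.475 to 0.733 for En2, 0.629 to 0.761 for Insig1, 0.605 to 0.924 for Paxip1 and 0.813 to 1.10 for Htr5a. On the Mnx1 side they were 0.553 to 0.671 for Nom1, 0.380 to 0.742 for Mnx1, 0.586 to 0.688 for Ube3c and 0.513 to 0.584 for Dnajb6. Only Htr5a thus reached the average for its distance in any map. With Shh, Rnf32 and Lmbr1 the list had 13 genes. Against wild type, the interval excluded 0 for 5 of 13 genes in intraTAD3 (5 higher), 5 in intraTAD2-1xBorCTCF (3 higher, 2 lower), 2 in intraTAD2, 1 in intraTAD2-i4CTCF and 1 in intraTAD2-2xBorCTCF. Over all pairs of 25 kb windows in the map the interval excluded 0 in 9.57%, 9.49%, 8.9%, 8.16% and 10.4% of windows in these comparisons, in the order named. Inside the domain alone the share for intraTAD3 was 13.1%. The gene windows differ in size, from 20 bin pairs (En2) to 150 (Lmbr1), and larger ones have narrower intervals. These shares are thus only a rough background for the gene counts. Against intraTAD2, 5 of 13 genes were higher in intraTAD3, with 7.23% of all windows called in either direction. The median gene had a log2 ratio to wild type of 0.19 in intraTAD3, 0.0033 in intraTAD2-1xBorCTCF, 0.034 in intraTAD2, 0.040 in intraTAD2-i4CTCF and 0.086 in intraTAD2-2xBorCTCF.

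Paxip1, which encodes a BRCT domain protein of chromatin and the DNA damage response, was higher than wild type in each of the 5 mutant maps, which share that 1 comparison map. Its log2 ratios were 0.57 in intraTAD2, 0.59 in intraTAD3, 0.42 in intraTAD2-i4CTCF, 0.48 in intraTAD2-2xBorCTCF and 0.61 in intraTAD2-1xBorCTCF. Its level was 0.605 in wild type and at most 0.924 in a mutant map. No mutant map differed from intraTAD2 at Paxip1. En2, a homeobox transcription factor gene, was higher in intraTAD3 by 0.49 (0.061 to 0.92) against wild type and by 0.54 (0.19 to 0.89) against intraTAD2. Mnx1, a homeobox gene of motor neurons, was higher in intraTAD3 than in intraTAD2 by 0.52 (0.16 to 0.88), and lower in intraTAD2-1xBorCTCF than in wild type with -0.54 (-1.07 to -0.0066). Cnpy1 was higher in intraTAD2-1xBorCTCF than in wild type by 0.25 (0.0040 to 0.49). Ube3c, a ubiquitin ligase gene, was lower in intraTAD2-1xBorCTCF than in intraTAD2 with -0.20 (-0.38 to -0.012).

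The whole profile of the site was read in 25 kb windows laid out from the site in both directions, 108 of them with enough contacts. Inside the domain 33 windows had a median level of 1.14 in the wild-type map, 1.16 in intraTAD2, 1.31 in intraTAD3, 1.18 in intraTAD2-i4CTCF, 1.12 in intraTAD2-2xBorCTCF and 1.14 in intraTAD2-1xBorCTCF. The 38 windows on the En2 side had medians of 0.763 to 0.884, and the 36 on the Mnx1 side 0.572 to 0.622. In every map the median inside the domain was above those of both sides outside it.

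The 5 windows with the highest mean over the 6 maps all lay near the ends of the domain. The first was 29290001-29315000 inside Lmbr1, read without its bins of the stretch that were left out of all maps, with levels of 1.76 in the wild-type map, 1.54 in intraTAD2, 1.76 in intraTAD3, 1.60 in intraTAD2-i4CTCF, 1.77 in intraTAD2-2xBorCTCF and 1.72 in intraTAD2-1xBorCTCF. The next 2 held Shh, 28440001-28465000 and 28465001-28490000. In intraTAD3 these reached 1.88 and 1.86, against 1.31 and 1.52 in wild type, and in intraTAD2-1xBorCTCF they had 1.27 and 1.16. The fourth, 29265001-29290000, lay in Lmbr1 and ranged from 1.43 to 1.68. The fifth, 28540001-28565000, held none of the listed genes and ranged from 1.28 to 1.64.

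Inside the domain, 10 of 33 windows were higher in intraTAD3 than in wild type and 0 were lower by the interval, and 29 of 33 ratios were above 0. The 10 windows included both Shh windows (0.52 and 0.29), windows 225, 200 and 150 kb towards Shh (0.19, 0.26 and 0.23), and windows 300 and 325 kb towards Lmbr1 (0.44 and 0.36). Over all pairs of windows inside the domain, 13.1% were called in that comparison, 11.3% higher and 1.85% lower, with a median log2 ratio of 0.063 against 0.17 for the site's windows. In intraTAD2-1xBorCTCF 6 of 33 were called (18.2%, against 16.6% of all window pairs in the domain), 3 higher and 3 lower; the lower ones lay 400, 375 and 350 kb towards Shh (-0.38, -0.38 and -0.23). The numbers were 3 in intraTAD2-i4CTCF (9.09%, against 11.6%), 2 in intraTAD2-2xBorCTCF (6.06%, against 10.8%) and 1 in intraTAD2 (3.03%, against 8.91%). In these 4 maps the site's share was thus near or below that of the whole domain.

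**Figure D5:**
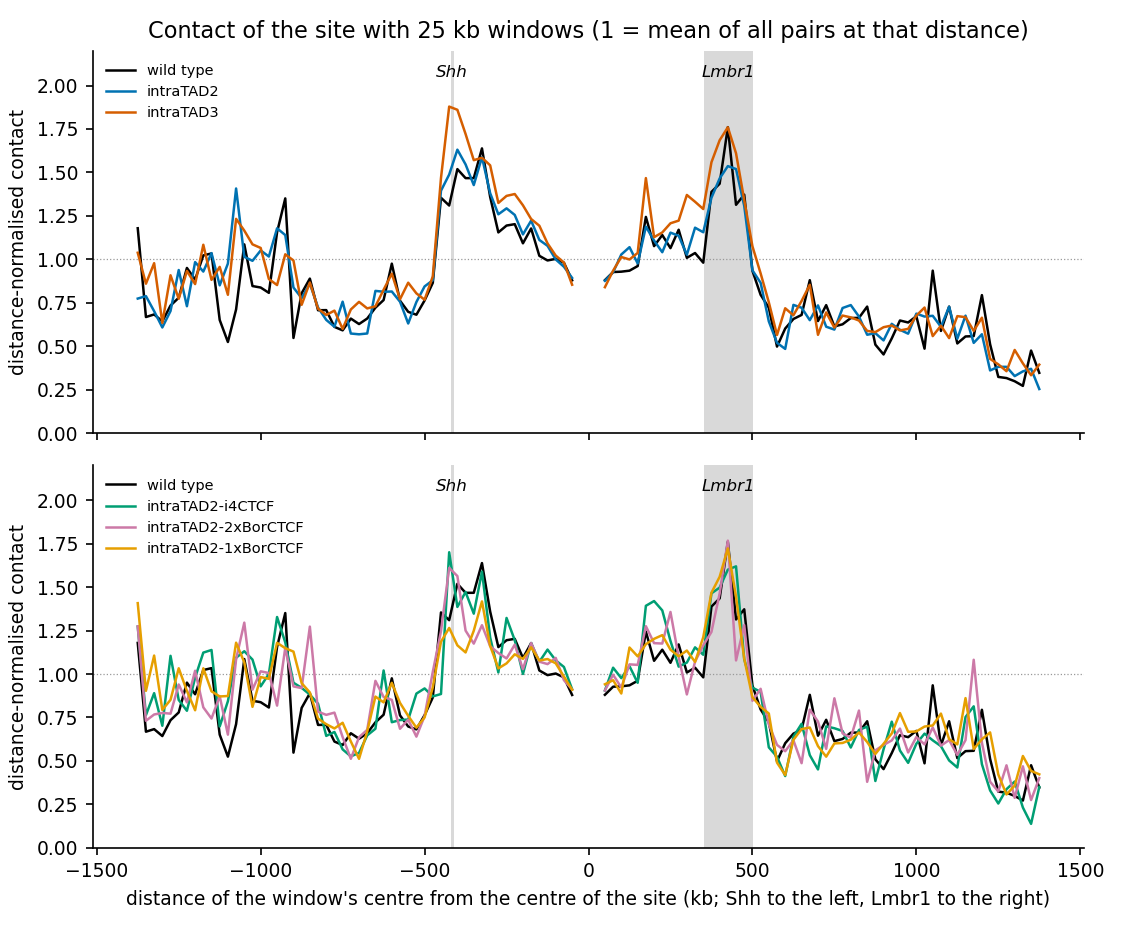
Distance-normalised contact of the site with 25 kb windows, by distance of the window's centre in kb, wild type with intraTAD2 and intraTAD3 above and with the other mutant maps below; the grey bands are Shh and Lmbr1, and 1 is the mean at each distance. The intraTAD3 line reaches 1.88 at Shh, where intraTAD2-1xBorCTCF has 1.27 and 1.16.

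Changes of 1.5-fold or more, with 20 or more contacts in the 2 maps together, were found in 0 windows inside the domain in any of the 9 comparisons. Of the 108 windows of the site, 4 were called in intraTAD2 against wild type, with 8.66% of all window pairs of the map called in that comparison. In the same way 5 were called in intraTAD3 (all windows 8.79%), 10 in intraTAD2-i4CTCF (11.7%), 6 in intraTAD2-2xBorCTCF (15.3%) and 6 in intraTAD2-1xBorCTCF (9.82%). Against intraTAD2 there was 1 in intraTAD3 (5.8%), and there were 7 in intraTAD2-i4CTCF (10.2%), 3 in intraTAD2-2xBorCTCF (12.9%) and 4 in intraTAD2-1xBorCTCF (7.28%). In each of the 9 comparisons, those with intraTAD3 included, the share of the site's windows was below that of all windows. For intraTAD3 it was 4.63% against wild type and 0.926% against intraTAD2. The nearest called window was 450 kb away, and the others were 675 kb or more away, where contacts are few.

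Against wild type the same 3 distant windows headed several lists. These comparisons share the wild-type map, whose median window on the En2 side was 0.763, and a cause was not tested. The window 27790001-27815000 had a wild-type level of 0.712 and log2 ratios of 0.98 in intraTAD2, 0.79 in intraTAD3, 0.62 in intraTAD2-i4CTCF, 0.61 in intraTAD2-2xBorCTCF and 0.73 in intraTAD2-1xBorCTCF; the intervals of intraTAD2-i4CTCF and intraTAD2-2xBorCTCF held 0. The window 27765001-27790000, inside Paxip1, had 0.524 in wild type and ratios of 0.90 in intraTAD2, 0.60 in intraTAD3, 0.69 in intraTAD2-i4CTCF and 0.74 in intraTAD2-1xBorCTCF. The window 27965001-27990000 had 0.548 on 17 wild-type contacts, and ratios of 0.61 to 1.04 in the 5 mutant maps, with an interval above 0 only in intraTAD2-1xBorCTCF.

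Other windows at the top or bottom of a list appeared in 1 or a few comparisons each. In intraTAD3 against wild type these were 30165001-30190000 (0.68, interval with 0) and, as the lowest, 29915001-29940000 (-0.74, from -1.25 to -0.23). In intraTAD2 against wild type the lowest was 27490001-27515000 (-0.61, interval with 0). In intraTAD2-i4CTCF the lowest were 30215001-30240000 (-1.79, on 7 contacts against 24), 30065001-30090000 (-0.72) and 29540001-29565000 (-0.72), the last 2 with intervals that held 0. In intraTAD2-2xBorCTCF the highest were 30040001-30065000 (0.95) and 30190001-30215000 (0.79), both with intervals that held 0, and the lowest were 29715001-29740000 (-0.94, from -1.78 to -0.098) and 30215001-30240000 (-0.79, interval with 0). In intraTAD2-1xBorCTCF the second highest was 30190001-30215000 (0.96, from 0.15 to 1.77).

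Against intraTAD2, the single intraTAD3 window was 30240001-30265000 (0.63, interval with 0). That window was also called in intraTAD2-2xBorCTCF (0.66) and intraTAD2-1xBorCTCF (0.74), and 27490001-27515000 was called in intraTAD2-i4CTCF (0.72), intraTAD2-2xBorCTCF (0.72) and intraTAD2-1xBorCTCF (0.86), these comparisons sharing the intraTAD2 map. The highest were 30040001-30065000 in intraTAD2-2xBorCTCF (1.06, from 0.19 to 1.93) and 30090001-30115000 in intraTAD2-1xBorCTCF (0.88, from 0.25 to 1.505). In intraTAD2-i4CTCF, 27590001-27615000 (0.65) and 30040001-30065000 (0.65) followed, and the lowest were 30215001-30240000 (-1.43), 29565001-29590000 at one end of Ube3c (-0.70) and 28415001-28440000 (-0.66, from -1.10 to -0.21). The last one, just past the border beyond Shh, was the called window nearest to the site.

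Balancing gives every bin of a map the same total, which largely fixes how the balanced levels of the centre bin and its neighbours compare over all partners. The log2 ratio of the centre bin to its 4 neighbours over all partners was 0.16 (0.12 to 0.20) in intraTAD3, with levels of 1.01 and 0.903. It was -0.0072 in the wild-type map, 0.035 in intraTAD2, 0.018 in intraTAD2-i4CTCF, -0.029 in intraTAD2-2xBorCTCF and 0.014 in intraTAD2-1xBorCTCF, all with intervals that held 0. Over the 108 windows the profile of the centre bin followed that of its neighbours with Pearson's r of 0.80 in the wild-type map, 0.84 in intraTAD2, 0.93 in intraTAD3, 0.68 in intraTAD2-i4CTCF, 0.55 in intraTAD2-2xBorCTCF and 0.71 in intraTAD2-1xBorCTCF. These are descriptions over windows of 1 library, in which the centre bin had 2562 contacts in wild type and 25746 in intraTAD3.

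For comparison, regions of the same size were read in the same way, the intraTAD2 site at chr5:28675001-28700000 and the window midway between Shh and Lmbr1 at chr5:28835001-28860000. At the midway window, which ends 5 kb before the site, contact with Shh was also higher in intraTAD3 than in wild type, with a log2 ratio of 0.28 (0.088 to 0.46). The ratio at the site exceeded it by 0.087 (-0.19 to 0.37), so no difference in contact with Shh was detectable between the site and its surroundings. For Rnf32 the site exceeded the midway window by 0.24 (0.050 to 0.42). For the rest of Lmbr1 the excess of 0.13 had an interval that held 0 (-0.0068 to 0.26). With ratios to intraTAD2 instead, the excess was 0.11 (-0.035 to 0.26) for Rnf32 and 0.12 (0.015 to 0.23) for the rest of Lmbr1. Which of these intervals held 0 thus depended on the comparison map. On the Lmbr1 side, where its near pairs reach into or across the site, the midway window had less contact in intraTAD3 than in wild type, with log2 ratios of -0.25 at 20 to 50 kb and -0.20 at 50 to 100 kb. On its Shh side the ratios at these distances were 0.071 and 0.081.

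The intraTAD2 site gave a similar picture in other maps. Contact across it over 50 kb was -0.057 in the wild-type map, -0.31 in intraTAD2, -0.030 in intraTAD3, -0.14 in intraTAD2-i4CTCF, -0.18 in intraTAD2-2xBorCTCF and -0.31 in intraTAD2-1xBorCTCF. The intraTAD2 difference from wild type of -0.25 (-0.31 to -0.19) was the lowest of 529 bins, as the intraTAD3 difference was at the site. Both places were chosen with earlier results of these maps known, so these ranks are descriptions and no independent support. The change in contact across the site minus that across the intraTAD2 site was -0.34 (-0.41 to -0.27) in intraTAD3 and 0.24 (0.17 to 0.31) in intraTAD2. Contact with Shh separated both places further. From the intraTAD2 site it was 1.10 in the wild-type map, 1.30 in intraTAD2, 0.998 in intraTAD3, 1.10 in intraTAD2-i4CTCF, 2.26 in intraTAD2-2xBorCTCF and 1.95 in intraTAD2-1xBorCTCF. In intraTAD2-1xBorCTCF the log2 ratio to wild type was 0.83 there and -0.32 at the site, a difference of -1.15 (-1.44 to -0.86). In intraTAD3 the difference was 0.50 (0.22 to 0.78) in favour of the site.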

How the data were processed

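Capture Hi-C maps of 5 mutant libraries and 1 wild-type map of no sample (1 column of values) were analysed. Per the labels' protocols, limb buds were fixed with 2% formaldehyde for 10 min, and chromatin was cut with DpnII, religated, sonicated and captured with custom SureSelect probes. Per the submitters' processing notes, Bowtie2 2.2.6 was used; these list both mm9 and mm10, with no role for either, and coordinates were read as mm10. A mapping quality of 30, Knight-Ruiz balancing and 5 kb bins are stated per the file names. The deposited values are this balanced contact signal, which the authors computed map by map. Other steps are not given in the sources used here.

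Whole contacts were recovered from the signal, with 100% of recovered values whole within 0.01; 6 pairs of intraTAD3 were not recovered, and 0 to 106 pairs per map were undefined. Totals were 1646616 contacts in the wild-type map, 2942790 in intraTAD2, 2848921 in intraTAD3, 1256568 in intraTAD2-i4CTCF, 1121373 in intraTAD2-2xBorCTCF and 1975131 in intraTAD2-1xBorCTCF. Of 558 bins, 10 were dropped everywhere because some map gave them fewer than 25% of its median partner count. The level of a window is the mean signal over the mean at the same distance, with a weighted Poisson interval; contacts are not independent molecules if duplicates remained. Gene windows have 1 bin either side. Recovery and intervals were tested on simulated data. Python 3.11.15, numpy 2.4.6 and pandas 2.3.3 were used. Gene positions are from RefSeq (GRCm38.p6).

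The site, the comparison regions and the gene list were chosen with earlier results of these data known. The list was ordered by role: Shh; Lmbr1 with Rnf32; 6 genes on the En2 side; 4 on the Mnx1 side. Named are Shh, Lmbr1 and Rnf32 in every map, other genes by range and where an interval excluded 0, the 5 partner windows highest in mean, and the 3 highest and 3 lowest called windows of each comparison. Alternatives were raw contacts, other expected values, other reference maps, other bins, windows and thresholds.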

Additional observations from a re-analysis of the deposited data

Results flagged for a closer look

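Pairs of the centre bin with bins under 20 kb away were outside the comparisons above, but they are part of the contact ends that chose the site, so their values are a description and no independent support. In intraTAD3, 6 of these 7 pairs had at least 2 times as many contacts, per 1000000 contacts of the map, as every other map, wild type included. The centre bin's contacts within itself came to 1367 per 1000000 in intraTAD3, against 52.2 to 208 in the other maps. On the Shh side the pairs at 5, 10 and 15 kb had 1173, 298.7 and 331.0 per 1000000, and on the Lmbr1 side those at 10 and 15 kb had 391.0 and 285.7. The distance-normalised level within the centre bin was 0.537 in intraTAD3 and 0.575 to 0.801 elsewhere.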

How the results depend on the processing

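Of 252 values recomputed under other settings, 190 stayed within the counting interval of the reported value or within 1.5 times a count, and 62 did not. In 35 the sign was the opposite one, and in 5 of these the reported value had an interval without 0; the cause was not tested. For intraTAD3, contact with Shh, with either side of the domain and with the rest of Lmbr1 kept a ratio above 0, and contact across the site a difference below 0, in each setting run, against wild type or against the median map used in its place. No paired analysis was possible because each genotype has 1 library. Windows of 25 kb, leaving out all 5 site bins and the median of the other 4 mutant maps as comparison were added after the data were seen.

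Without balancing, differences in contact across the site from wild type were -0.14 in intraTAD2 and -0.30 in intraTAD3, and they turned to -0.12 in intraTAD2-1xBorCTCF, -0.0048 in intraTAD2-2xBorCTCF and -0.089 in intraTAD2-i4CTCF. Without balancing, the intraTAD3 ratios to wild type were 0.91 for Shh, 0.75 for the rest of Lmbr1, 0.56 for the Shh side and 0.63 for the Lmbr1 side, and the Shh side of intraTAD2-i4CTCF had -0.074. The ZRS stretch then had -0.51 (-0.77 to -0.24) in intraTAD2, -0.55 (-0.85 to -0.25) in intraTAD2-1xBorCTCF, -0.44 (-0.79 to -0.085) in intraTAD2-2xBorCTCF and -0.45 in intraTAD2-i4CTCF. The centre bin against its neighbours had -1.18 in the wild-type map, -0.52 in intraTAD2, 1.53 in intraTAD3, -0.42 in intraTAD2-i4CTCF, -0.47 in intraTAD2-2xBorCTCF and -0.25 in intraTAD2-1xBorCTCF.

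With the expected value taken inside the domain, contact across the site differed from wild type by 0.068 in intraTAD2-i4CTCF and -0.17 in intraTAD3. In intraTAD3 the sides then had 0.092 on the Shh side and 0.086 on the Lmbr1 side, and the rest of Lmbr1 had 0.16 in intraTAD2-1xBorCTCF. Against the median of the other 5 maps, contact across the site was -0.028 in intraTAD2 and -0.19 in intraTAD3, and the Lmbr1 side had -0.039 in intraTAD2 and -0.045 in intraTAD2-2xBorCTCF. Against the median of the other 4 mutant maps, contact across the site was -0.045 in intraTAD2, -0.0028 in intraTAD2-1xBorCTCF (a change of sign), 0.078 in intraTAD2-i4CTCF and -0.21 in intraTAD3. Windows of 50 kb gave -0.011 in intraTAD2, 0.076 in intraTAD2-i4CTCF and -0.31 in intraTAD3, windows of 25 kb gave -0.0032 in intraTAD2-i4CTCF (a change of sign) and -0.51 in intraTAD3, and leaving out the 5 site bins gave -0.082 in intraTAD3. A site of 3 bins gave intraTAD2-i4CTCF 0.013 for the Lmbr1 side and -0.11 for the rest of Lmbr1.

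Partner windows past 2-fold against wild type numbered 0 in intraTAD2, 0 in intraTAD3, 1 in intraTAD2-i4CTCF, 0 in intraTAD2-2xBorCTCF and 1 in intraTAD2-1xBorCTCF; against intraTAD2 they numbered 0 in intraTAD3, 1 in intraTAD2-i4CTCF, 1 in intraTAD2-2xBorCTCF and 0 in intraTAD2-1xBorCTCF. Windows past 1.5-fold without balancing numbered 63 in intraTAD3, 2 in intraTAD2, 5 in intraTAD2-i4CTCF and 3 in intraTAD2-1xBorCTCF against wild type, and 56 in intraTAD3 and 2 in intraTAD2-1xBorCTCF against intraTAD2. Without the centre bin there were 2 in intraTAD3 against wild type, and 3 in intraTAD3, 6 in intraTAD2-2xBorCTCF and 2 in intraTAD2-1xBorCTCF against intraTAD2. With 50 contacts or more, intraTAD2-2xBorCTCF had 2 against wild type and 1 against intraTAD2.

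Intervals hold counting error only, so the spread between embryos is unknown for every value. Beyond the domain few contacts remain: the wild-type window 27965001-27990000 rests on 17, and its ratio to intraTAD3 had an interval that held 0.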
